A study of Mus musculus with 16 samples.

Results

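Bod1l, Cntrl, Ipcef1, Dnttip2 and Morf4l1 are 5 of the 24421 gene symbols counted in each library, and they were picked by symbol because their mRNA was lower in MDSCs (myeloid-derived suppressor cells) of mice without Nlrp3. The genotype differences in both subsets are therefore what chose these genes. They are given below as a description with no test. The cells came from spleens of 8 mice, all labelled as strain C57BL/6, that carried B16.F10 melanoma, a mouse melanoma cell line implanted in the skin of the back, 4 of them wild type (WT) and 4 Nlrp3-/-. From each mouse both M-MDSCs (CD11b-high Ly6C+Ly6G-) and G-MDSCs (CD11b-high Ly6C-Ly6G+) were sorted at a purity above 95%, which gave 4 groups of 4 libraries, WT M-MDSC, Nlrp3-/- M-MDSC, WT G-MDSC and Nlrp3-/- G-MDSC, each library from 1 mouse. The Nlrp3-/- allele carries an EGFP cassette fused at the start codon of Nlrp3 and is present in every cell of the host, while the tumor cells of both genotypes keep Nlrp3. Mice without a tumor were not part of the sequenced groups, and the labels of these samples give neither an age nor a day. The methods name C57BL/6J mice from a vendor as WT and a C57BL/6 background from another source for the Nlrp3-/- mice, so that they are not described as littermates. As general rules, not tied to these samples, the methods have an age of 6 to 12 weeks, matched for age and sex, and analysis on day 15 of the tumor.

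The 5 proteins work in different places of the cell. Morf4l1 (also MRG15) is a chromodomain protein that reads methylated histone tails and belongs to the NuA4/TIP60 acetyltransferase complex, to SIN3-HDAC complexes and to the ASH1L methyltransferase complex. Bod1l protects stalled replication forks from degradation and binds the SETD1 histone methyltransferase complex. Dnttip2 is a nucleolar protein of the small subunit processome, the particle that assembles the small ribosomal subunit. Cntrl (centriolin) sits on the appendages of the mother centriole and at the midbody, where it anchors the exocyst during the last step of cell division. Ipcef1 binds the cytohesins, exchange factors that switch on small GTPases of the ARF family at the membrane. M-MDSCs resemble immature monocytes and G-MDSCs immature neutrophils, and Nlrp3 is the sensor of the inflammasome that matures IL-1β.

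The 5 genes were chosen because they were lower without Nlrp3, and their promoters are printed to show what they do and do not share. Each is 300 bases in GRCm38.p6, the build also called mm10, from RefSeq, 250 before the start of transcription and 50 from it on, read 5′ to 3′ on the strand of the gene. Where RefSeq gives several starts, the farthest upstream was taken. Capitals mark matches to the motifs searched.
Morf4l1, chr9:90114771-90115070, minus strand: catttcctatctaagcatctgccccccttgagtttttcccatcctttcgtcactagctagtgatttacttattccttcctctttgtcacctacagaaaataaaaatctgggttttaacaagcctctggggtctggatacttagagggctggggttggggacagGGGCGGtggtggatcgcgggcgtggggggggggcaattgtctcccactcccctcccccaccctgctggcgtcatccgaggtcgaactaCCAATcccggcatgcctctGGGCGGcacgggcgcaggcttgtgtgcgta
Bod1l, chr5:41844266-41844565, minus strand: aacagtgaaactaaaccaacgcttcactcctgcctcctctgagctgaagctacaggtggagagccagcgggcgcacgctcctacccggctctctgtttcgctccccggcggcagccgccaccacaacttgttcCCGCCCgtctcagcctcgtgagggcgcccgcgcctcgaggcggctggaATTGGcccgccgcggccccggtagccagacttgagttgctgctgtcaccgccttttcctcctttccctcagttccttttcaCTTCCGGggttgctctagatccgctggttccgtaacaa
Dnttip2, chr3:122274164-122274463, plus strand: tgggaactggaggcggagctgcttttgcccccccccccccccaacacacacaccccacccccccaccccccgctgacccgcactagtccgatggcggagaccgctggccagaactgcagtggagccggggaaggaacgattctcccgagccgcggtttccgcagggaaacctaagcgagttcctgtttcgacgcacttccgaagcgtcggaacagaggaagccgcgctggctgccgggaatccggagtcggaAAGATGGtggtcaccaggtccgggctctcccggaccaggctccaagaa
Cntrl, chr2:35109242-35109541, plus strand: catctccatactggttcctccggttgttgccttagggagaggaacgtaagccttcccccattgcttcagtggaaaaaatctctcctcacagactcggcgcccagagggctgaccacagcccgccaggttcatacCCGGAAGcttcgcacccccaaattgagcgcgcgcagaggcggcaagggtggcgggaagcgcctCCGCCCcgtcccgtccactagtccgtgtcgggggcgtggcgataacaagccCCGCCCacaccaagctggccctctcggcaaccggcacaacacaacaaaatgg
Ipcef1, chr10:7023136-7023435, minus strand: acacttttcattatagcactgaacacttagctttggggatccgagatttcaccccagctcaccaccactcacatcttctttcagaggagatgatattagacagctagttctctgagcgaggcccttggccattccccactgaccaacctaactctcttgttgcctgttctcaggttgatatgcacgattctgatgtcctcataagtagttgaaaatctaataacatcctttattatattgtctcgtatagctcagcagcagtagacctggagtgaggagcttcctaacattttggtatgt

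The motifs searched on both strands were the GC box (GGGCGG), the CCAAT box (CCAAT), an ETS motif (CCGGAAG), the E-box (CACGTG), a CRE motif (TGACGT), the TATA box (TATAAA) and a YY1 motif (AAGATGG), and none of them overlaps another in these windows. The GC box lies in the windows of Morf4l1, Bod1l and Cntrl, and 35.7% of the 32851 RefSeq mouse promoters of this length hold it. The CCAAT box lies in those of Morf4l1 and Bod1l, against 37.4% of all promoters. It is also in 2 Cntrl windows at starts farther downstream, from 35131966 and from 35131984, which are not printed. The ETS motif lies in those of Bod1l and Cntrl, against 8.86%, and the YY1 motif in that of Dnttip2, 2 bases after the start, against 6.34%. The E-box, the CRE motif and the TATA box, held by 7.15%, 7.51% and 13.6% of all promoters, are in none of the 5. No motif of the search is in the Ipcef1 window, which is also poor in CpG, with 4 CpG dinucleotides against 13 to 25 in the other 4 and a median of 7 over all promoters. Thus no searched motif is common to all 5, and a match is a string of letters, not a bound site. The Ipcef1 window lies inside the gene as annotated in GENCODE (6885796 to 7052478, minus strand), whereas the other 4 windows span the 5′ end of their genes. Its contrast with them may therefore be one between kinds of start, and which start these cells use was not tested.

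Libraries were made with QuantSeq, which reads the 3′ end of polyadenylated RNA, and held 2295967 to 6079866 counts, so that 3 counts correspond to 0.349 to 1.17 CPM, the count scaled to a common library size after TMM normalization. Values after ± are SDs over the libraries of a group (n = 4). The targeted gene followed the labels in every library, since no Nlrp3-/- library had more than 11 Nlrp3 counts among M-MDSCs or 59 among G-MDSCs, while each WT library had at least 219 or 744. All 8 monocytic markers were called lower and all 9 measured granulocytic markers higher in G-MDSCs, and Ly6g was not among the symbols. Markers of other cells also differed between the subsets. All 5 tested B cell markers and 4 of 6 T cell markers were called higher in G-MDSCs, and 0 of either list lower. Of 7 tested dendritic cell and macrophage markers, C1qa, C1qb, C1qc and Vcam1 were higher and Adgre4, Cd209a and Flt3 lower. Ccr3, Siglecf, Alas2 and Itga2b were higher and Prg2 lower. Some markers also moved with genotype. Of the B cell markers only Ms4a1 was called lower in Nlrp3-/- mice, 1 of 4 tested in M-MDSCs and 1 of 5 in G-MDSCs. The B cell list summed in M-MDSCs to 93.1 to 129 CPM for WT mice and 78.9 to 152 CPM for Nlrp3-/- mice. In G-MDSCs it summed to 233 to 315 and 210 to 311 CPM, and the genotypes overlapped in both subsets. In Nlrp3-/- M-MDSCs 2 of 8 tested granulocytic markers, Mmp9 and Retnlg, were called higher, and 1 of 8 monocytic markers, Klf4, lower. The granulocytic list summed there to 1301 to 7700 CPM for WT mice and 1994 to 2301 CPM for Nlrp3-/- mice. The monocytic list summed to 6172 to 8479 and 7359 to 9917 CPM, and both pairs of ranges overlapped. The eosinophil marker Ccr3, 1 of 2 tested in its list, was also called higher in Nlrp3-/- M-MDSCs. In Nlrp3-/- G-MDSCs 1 of 6 tested monocytic markers, Csf1r, and 1 of 4 platelet markers, Itga2b, were called higher. Of 9 granulocytic markers 1, Cxcr2, was called lower there. The monocytic list summed to 692 to 997 CPM in G-MDSCs of WT mice and 1031 to 1252 CPM in those of Nlrp3-/- mice. The granulocytic list summed to 112091 to 142623 and 137578 to 171895 CPM, with overlap. In the list of 10 dendritic cell and macrophage markers, C1qa, C1qb, C1qc and Vcam1 were called higher in Nlrp3-/- mice in both subsets. The summed level of that list in M-MDSCs was 65.0 to 124 CPM for WT mice and 119 to 310.4 CPM for Nlrp3-/- mice. In G-MDSCs it was 70.8 to 178 CPM for WT mice and 296 to 425 CPM for Nlrp3-/- mice, with Vsig4 at 0 in both M-MDSC groups and in Nlrp3-/- G-MDSCs. Melanoma markers summed to at most 1.45 CPM, with Mlana, Tyr, Tyrp1 and Sox10 at 0 in all groups. The share of a library taken by its 20 most counted genes was also lower without Nlrp3, at 15.2% to 21.1% (WT 21.2% to 30.0%) among M-MDSCs and 27.9% to 29.8% (WT 33.2% to 43.2%) among G-MDSCs. The part of these shifts in the results below was not tested, and in such bulk RNA fewer cells of a type and less RNA per cell cannot be told apart.

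Between genotypes, all 5 genes were lower in all 4 Nlrp3-/- libraries than in all 4 WT libraries, in M-MDSCs and in G-MDSCs alike, with Nlrp3-/- levels of 22.1% to 40.4% of WT. A differentially expressed gene (DEG) has a Benjamini-Hochberg FDR under 0.05 in edgeR's quasi-likelihood test and a fold change above 1.5. By this call 7.10% of 9986 tested genes were lower (3.51% higher) in Nlrp3-/- M-MDSCs and 11.7% of 9273 lower (4.70% higher) in Nlrp3-/- G-MDSCs, while complete separation downwards was seen for 11.1% and 14.2%. Of the 8823 genes tested in both subsets 6.22% were called lower in both and 8.40% were separated downwards in both, and all 5 members are among each, as their choice required. In G-MDSCs 0.830%, 1.02% and 1.66% of tested genes had a more negative log2 fold change than Bod1l, Cntrl and Ipcef1. For Dnttip2 and Morf4l1 the shares were 3.86% and 5.34%. In M-MDSCs they were 1.15% for Dnttip2, 0.891% for Morf4l1, 2.35% for Bod1l, 2.31% for Cntrl and 1.30% for Ipcef1. The genes were chosen by these differences, so their place near the low end is part of the choice.

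**Figure D1:**
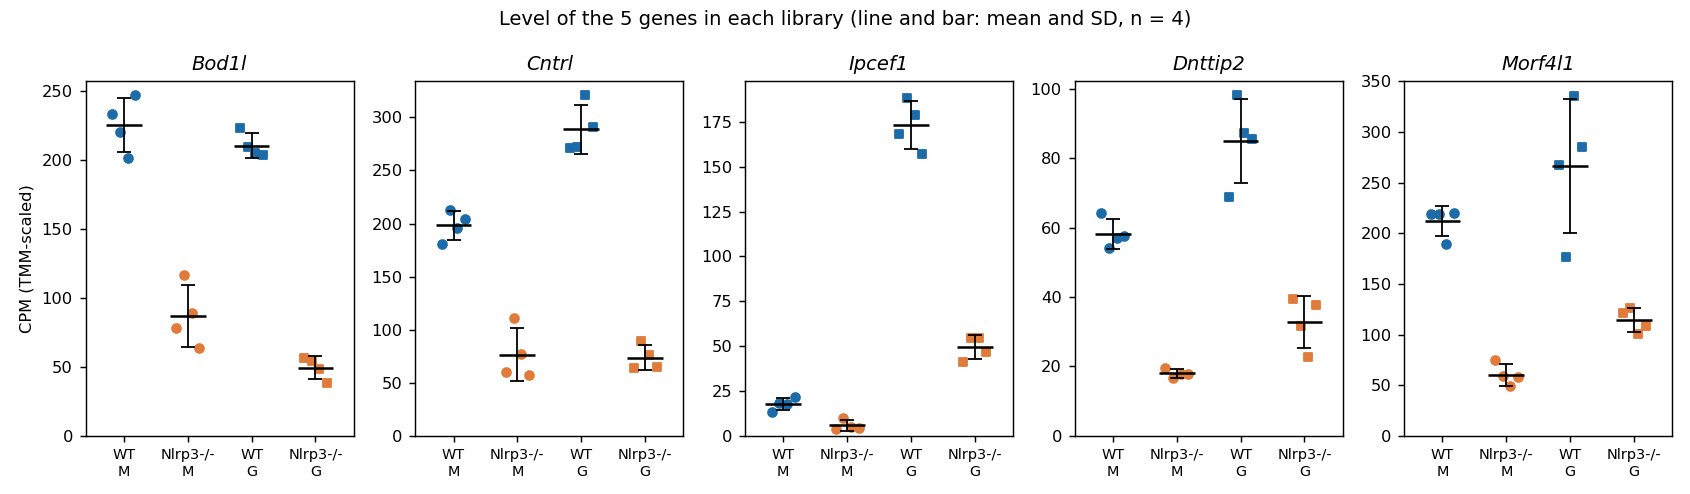
Level of each gene in CPM (vertical axes from 0, a scale for each gene) in the 16 libraries, circles for M-MDSCs and squares for G-MDSCs, blue for WT and orange for Nlrp3-/-, with the mean and SD of 4 libraries as a line and bar. In every panel and subset the orange points lie below all blue points, and in the Ipcef1 panel WT G-MDSCs average 173 CPM against 17.7 CPM in WT M-MDSCs.

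Morf4l1, the chromatin reader (chromosome 9, 90091665 to 90114774 on the minus strand, GRCm38), had 219, 219, 189.6 and 219.6 CPM in replicates 1 to 4 of WT M-MDSCs. In Nlrp3-/- M-MDSCs it had 74.6, 59.4, 48.7 and 58.5 CPM. The log2 fold change was −1.78 (standard error 0.17), a 3.43-fold lower level, and 0.891% of tested genes had a more negative value. In G-MDSCs the levels were 267, 177, 336 and 286 CPM in WT and 121, 126, 100.5 and 109 CPM in Nlrp3-/- mice. The WT G-MDSC libraries spread widely, with replicate 2 at the low end, and the log2 fold change was −1.31 (standard error 0.19). In order, WT G-MDSCs (266 ± 66.5 CPM) and WT M-MDSCs (212 ± 14.8 CPM) overlapped, followed by Nlrp3-/- G-MDSCs (114 ± 11.7 CPM) and Nlrp3-/- M-MDSCs (60.3 ± 10.7 CPM), which overlapped with no other group.

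The counts of Morf4l1 carry an uncertainty, since Morf4l1-ps1, a processed pseudogene on chromosome 16 (24529394 to 24530362, plus strand), is a copy that can take its reads. The pseudogene had 73.4, 7.87, 7.49 and 64.8 CPM in replicates 1 to 4 of WT M-MDSCs, at most 27.98 CPM in Nlrp3-/- M-MDSCs and 6.42 to 15.999 CPM in the G-MDSC groups. Replicates 1 and 4 of WT M-MDSCs were high for the pseudogene, while Morf4l1 itself was about as high in replicate 2 of that group as in those. With both rows summed, the M-MDSC level was 197 to 292 CPM for WT mice and 58.7 to 87.4 CPM for Nlrp3-/- mice, and the log2 fold change −1.70, and in G-MDSCs the log2 fold change was −1.24. Exons of Gm26882, a long noncoding RNA gene on the opposite strand, overlap those of Morf4l1 over 1499 bases. Gm26882 was not among the counted symbols, so its level is not known here. The paralog Morf4l2, which shares domains and partners with Morf4l1, averaged 9.59 ± 3.45 CPM in M-MDSCs of WT mice against 6.41 ± 3.69 CPM without Nlrp3. Its G-MDSC means were 10.9 ± 8.36 and 15.4 ± 6.38 CPM, and neither difference passed (adjusted p = 0.484 and 0.593, edgeR's quasi-likelihood test).

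Bod1l, the fork protection factor (chromosome 5, 41787538 to 41844315, minus strand), had 233, 220.5, 201 and 247 CPM in WT M-MDSCs. The Nlrp3-/- M-MDSCs had 78.4, 117, 89.0 and 63.5 CPM, replicate 2 being the highest. The log2 fold change was −1.35 (standard error 0.19), a 2.56-fold lower level. In WT G-MDSCs the 4 libraries lay close together at 223, 209.8, 205 and 204 CPM, and in Nlrp3-/- G-MDSCs at 56.4, 54.6, 48.3 and 38.0 CPM. The log2 fold change in G-MDSCs was −2.18 (standard error 0.17), a 4.52-fold lower level and the most negative of the 10 values of these genes. WT M-MDSCs (226 ± 19.4 CPM) and WT G-MDSCs (211 ± 8.88 CPM) overlapped, whereas Nlrp3-/- M-MDSCs (86.9 ± 22.5 CPM) lay above Nlrp3-/- G-MDSCs (49.3 ± 8.28 CPM) without overlap. Its paralog Bod1, which acts in chromosome biorientation, averaged 9.90 ± 3.15 CPM in M-MDSCs of WT mice against 9.73 ± 3.16 CPM without Nlrp3. In G-MDSCs its means were 3.46 ± 2.76 and 4.45 ± 1.52 CPM, and neither difference passed (log2 fold change 0.01 and 0.28, adjusted p = 0.987 and 0.786 from edgeR).

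Dnttip2, the nucleolar member (chromosome 3, 122274388 to 122285271, plus strand), had 64.1, 54.0, 56.9 and 57.6 CPM in WT M-MDSCs. Nlrp3-/- M-MDSCs had 19.7, 16.7, 17.8 and 17.7 CPM, a narrow group whose coefficient of variation was 6.84%. The log2 fold change was −1.66 (standard error 0.16), a 3.16-fold lower level. In G-MDSCs the levels were 68.8, 98.1, 87.2 and 85.6 CPM in WT and 39.3, 31.6, 22.6 and 37.8 CPM in Nlrp3-/- mice, with a log2 fold change of −1.46 (standard error 0.21). The 4 groups followed in the order WT G-MDSC (84.9 ± 12.1 CPM), WT M-MDSC (58.1 ± 4.26 CPM), Nlrp3-/- G-MDSC (32.8 ± 7.58 CPM) and Nlrp3-/- M-MDSC (17.97 ± 1.23 CPM), with no overlap between neighbours. Dnttip1, named for the same partner, terminal deoxynucleotidyltransferase, but unrelated in sequence, averaged 20.03 ± 1.63 CPM in M-MDSCs of WT mice against 27.1 ± 1.19 CPM without Nlrp3 (adjusted p = 0.0891, edgeR), the Nlrp3-/- libraries all being the higher. In G-MDSCs its values were 29.4 ± 10.1 and 38.6 ± 9.90 CPM, with overlap.

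Cntrl, the centriole component (chromosome 2, 35109492 to 35178822, plus strand), had 181, 213, 195 and 204 CPM in WT M-MDSCs. In Nlrp3-/- M-MDSCs it had 60.1, 111, 77.1 and 57.3 CPM, replicate 2 again being the highest. The log2 fold change was −1.36 (standard error 0.20). In G-MDSCs the WT levels were 271, 272, 321 and 291 CPM and the Nlrp3-/- levels 63.8, 89.4, 75.8 and 64.8 CPM, a log2 fold change of −2.06 (standard error 0.17) or a 4.17-fold lower level. WT G-MDSCs (289 ± 23.2 CPM) lay above WT M-MDSCs (198 ± 13.7 CPM), and both above the Nlrp3-/- groups. Nlrp3-/- M-MDSCs (76.4 ± 24.8 CPM) and Nlrp3-/- G-MDSCs (73.4 ± 11.9 CPM) overlapped.

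Ipcef1, the cytohesin partner (chromosome 10, 6885796 to 7052478, minus strand), was the member with the fewest reads in M-MDSCs, with 13.4, 18.0, 17.7 and 21.6 CPM in WT. In Nlrp3-/- M-MDSCs it had 3.72, 10.1, 5.01 and 4.24 CPM, or 24 to 59 counts, with replicate 2 at more than the other 3. The log2 fold change was −1.60 (standard error 0.32), and it was −2.05 in the fit that left out Nlrp3-/- replicate 2. In G-MDSCs the levels were 168, 189, 179 and 157 CPM in WT and 40.9, 54.6, 54.7 and 46.9 CPM in Nlrp3-/- mice, a log2 fold change of −1.90 (standard error 0.16) or a 3.73-fold lower level. The groups followed as WT G-MDSC (173 ± 13.5 CPM), Nlrp3-/- G-MDSC (49.3 ± 6.66 CPM), WT M-MDSC (17.7 ± 3.36 CPM) and Nlrp3-/- M-MDSC (5.76 ± 2.92 CPM), and no neighbours overlapped. Exons of Oprm1, an opioid receptor gene on the opposite strand, overlap those of Ipcef1 over 96 bases, and Oprm1 had 0 to 12 counts per library in a stranded count. Cnksr3, a gene of the same scaffold protein family, averaged 5.55 ± 0.294 CPM in M-MDSCs of WT mice against 7.89 ± 2.99 CPM without Nlrp3 (adjusted p = 0.282, edgeR) and at most 9 counts in a G-MDSC library.

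The members thus fell into different orders in the subsets. In M-MDSCs the most negative log2 fold change was that of Morf4l1 and the least negative that of Bod1l, and in G-MDSCs the most negative was that of Bod1l and the least negative that of Morf4l1. Whether the genotype difference of a member differs between the subsets was not tested, because both differences were used to choose it. Over the fits that left out 1 library each, all 10 values stayed negative, the one nearest to 0 being −1.16 for Morf4l1 in G-MDSCs. Since these differences chose the genes, the kept direction followed from the choice.

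The transcripts of the 5 genes had a GC content below the median of the tested genes, as had most genes called lower. Of the lower genes with a known transcript 73.9% in M-MDSCs and 74.3% in G-MDSCs lay in the lowest pair of GC quintiles, so that the choice of lower genes alone favours this trait. Their reference transcripts had a GC content of 43.3% to 47.9% against a median of 49.9% over 8773 genes, which places them between percentile 15.98 and percentile 39.2. Bod1l, Cntrl and Ipcef1 are also long, with 10540, 7615 and 6041 nucleotides (percentiles 98.2, 93.4 and 86.4), whereas Dnttip2 and Morf4l1 have 2429 and 1882 nucleotides (percentiles 34.6 and 22.5). In the last 500 bases, near where QuantSeq reads, the GC content was 29.6% in Bod1l, 38.0% in Cntrl and Dnttip2, 40.4% in Ipcef1 and 36.6% in Morf4l1, against a median of 43.8%. In the quintile of genes with the lowest GC content 17.0% were called lower in Nlrp3-/- M-MDSCs and 26.3% in Nlrp3-/- G-MDSCs, while in the highest quintile 1.11% and 1.52% were. By length, 16.1% and 26.0% of the longest quintile were called lower, against 2.06% and 3.41% of the shortest.

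**Figure D2:**
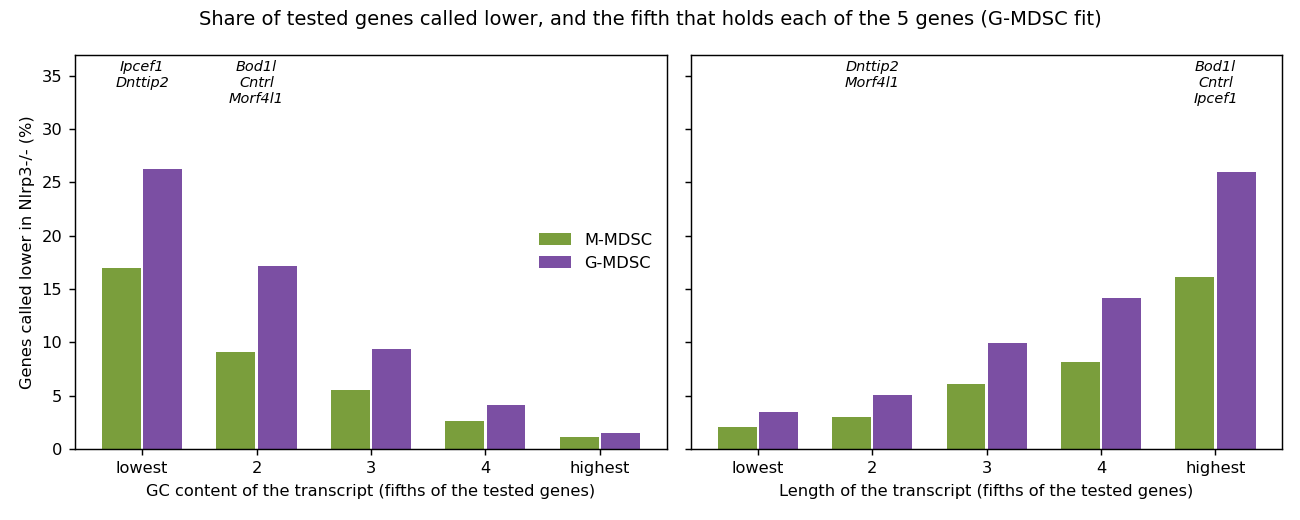
Percent of tested genes called lower in Nlrp3-/- mice (vertical axis) in quintiles of transcript GC content (left) and of transcript length (right), green for M-MDSCs and purple for G-MDSCs, with the names of the 5 genes above the quintile that holds them. The bars fall from the lowest to the highest GC quintile, from 26.3% to 1.52% in G-MDSCs, all 5 names stand over the lowest pair of GC quintiles, and only Bod1l, Cntrl and Ipcef1 stand over the longest quintile.

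When the dependence on GC content and length was fitted in each library and entered as an offset, the 5 genes remained lower in Nlrp3-/- mice, by less. In M-MDSCs the log2 fold change of Morf4l1 became −1.63, that of Dnttip2 −1.46, that of Ipcef1 −1.19, that of Cntrl −1.03 and that of Bod1l −0.87. In G-MDSCs that of Cntrl became −1.63, that of Bod1l −1.53, that of Ipcef1 −1.34, that of Dnttip2 −1.17 and that of Morf4l1 −1.13. The change was greatest for Bod1l, from a 4.52-fold to a 2.89-fold lower level in G-MDSCs and from 2.56-fold to 1.82-fold in M-MDSCs. After the correction 0.811% to 5.63% of tested genes were more negative than these genes in M-MDSCs and 1.68% to 4.72% in G-MDSCs. The correction also brought the count of all DEGs from 1060 to 678 in M-MDSCs and from 1522 to 1023 in G-MDSCs, and the share of lower genes among them from 66.9% to 53.2% and from 71.4% to 50.7%. Whether the trend with GC content arises in the cells or in the libraries was not tested.

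**Figure D3:**
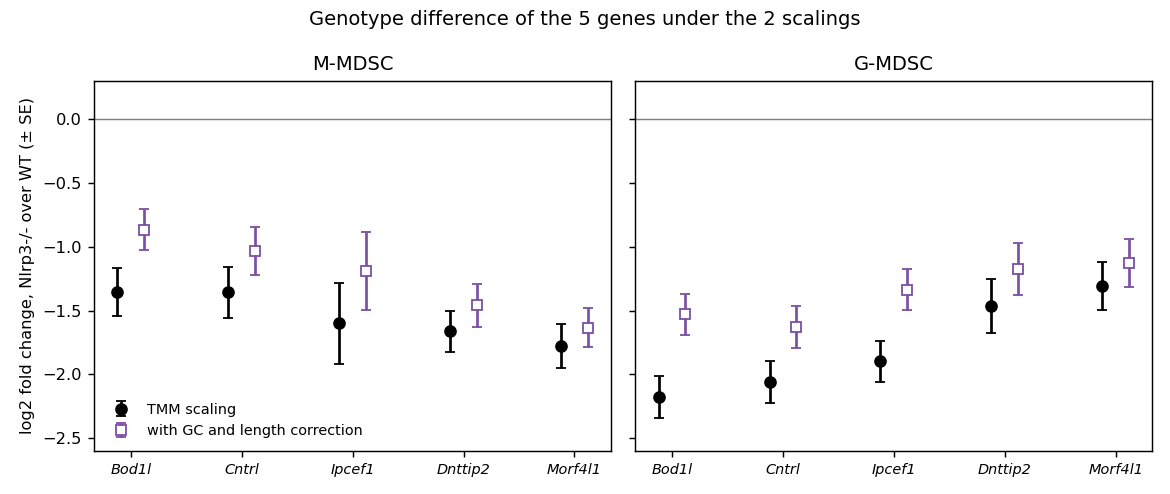
Log2 fold change of Nlrp3-/- over WT (vertical axis, bars are standard errors) of the 5 genes in M-MDSCs (left) and G-MDSCs (right), black circles after TMM scaling and open squares with the added correction for GC content and length. Every square lies above its circle and below 0, from −0.87 for Bod1l in M-MDSCs to −1.63 for Morf4l1 in M-MDSCs and for Cntrl in G-MDSCs.

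The difference between the subsets was not used to choose the genes, so it was tested, over all 16 libraries and averaged over the genotypes. Of 10696 genes tested 58.2% passed in either direction, 28.2% higher and 30.0% lower in G-MDSCs, which is the background for these 5. Ipcef1 was 9.24-fold higher in G-MDSCs (log2 fold change 3.21, standard error 0.18, adjusted p = 2.86e-12, edgeR's quasi-likelihood test), with no overlap between the 8 libraries of each subset, as was the case upwards for 14.9% of tested genes. It was higher in the G-MDSCs of 8 of 8 mice, by 2.39 to 3.61 on the log2 scale.

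Dnttip2 was 1.63-fold higher in G-MDSCs (log2 fold change 0.71, standard error 0.13, adjusted p = 6.43e-05, edgeR) and higher in 8 of 8 mice, by 0.10 to 1.07. Morf4l1 was 1.54-fold higher (log2 fold change 0.63, standard error 0.13, adjusted p = 0.000216, edgeR), in 7 of 8 mice, WT replicate 2 being the exception at −0.31. Both lie little above the 1.5-fold limit, and both calls depend on the scaling. With upper-quartile scaling they missed it, at 0.49 and 0.40, and with library size alone they turned to −0.09 and −0.16. That scaling moved the median of all genes to −0.83, so that Dnttip2 and Morf4l1 still lay 0.74 and 0.67 above it. The Morf4l1 call was also lost with the pseudogene counts added (log2 fold change 0.43) and without the mouse WT replicate 3 (0.53), and in WT mice alone its difference was 0.33 (adjusted p = 0.148, edgeR).

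Bod1l was lower in G-MDSCs by a log2 difference of −0.46 (standard error 0.12, adjusted p = 0.00280, edgeR), under the 1.5-fold limit, and in 7 of 8 mice. In WT mice its within-mouse differences ran from −0.28 to 0.03 and in Nlrp3-/- mice from −1.09 to −0.47. Cntrl had no difference past the test (log2 fold change 0.24, standard error 0.13, adjusted p = 0.107, edgeR), with values of 0.36 to 0.71 in WT mice and −0.31 to 0.18 in Nlrp3-/- mice. For Bod1l and Cntrl the within-mouse values of the genotypes did not overlap, which restates the larger genotype difference in G-MDSCs and was not tested. With the mouse as a block the 5 log2 values were 3.24 for Ipcef1, 0.69 for Dnttip2, 0.61 for Morf4l1, −0.45 for Bod1l and 0.26 for Cntrl.

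**Figure D4:**
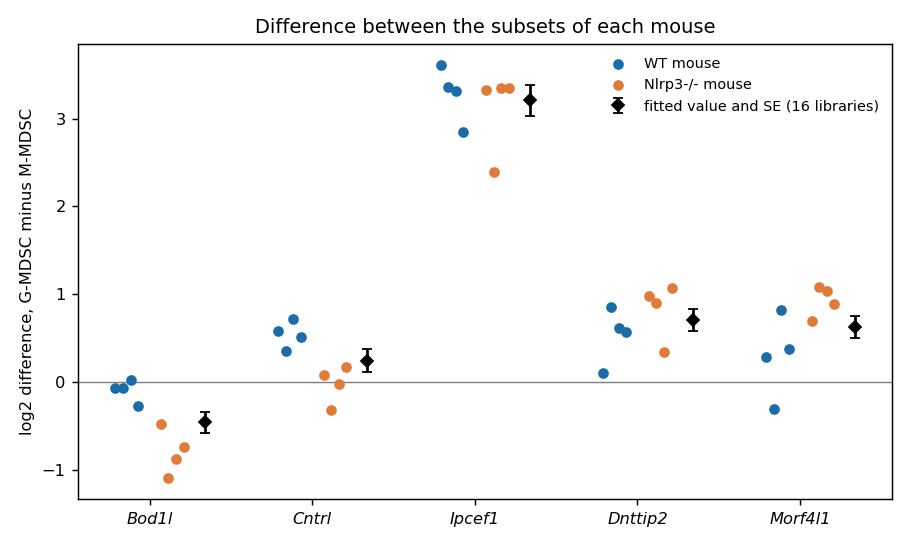
Log2 difference between the G-MDSC and the M-MDSC library of each mouse (vertical axis), blue for the 4 WT and orange for the 4 Nlrp3-/- mice, with the fitted value and its standard error over 16 libraries as a black diamond. Ipcef1 stands apart at 3.21, all mice lie above 0 for Ipcef1 and Dnttip2, and for Bod1l the Nlrp3-/- mice lie below the WT mice.

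The other genes of the members' pathways, from lists that leave the members out, were lower in part. The share called lower ran from 2.56% in the list of cytohesins and ARF regulators to 22.9% in that of centrosome and midbody in M-MDSCs, against 7.10% of all tested genes, and from 13.8% in the list of the SETD1 complex and fork protection to 32.7% in that of centrosome and midbody in G-MDSCs, against 11.7%. The list of the MRG15 complexes, the setting of Morf4l1, is wider than its partners, since it also holds Setd2, Msl1, Msl2 and Kat8. Of 36 tested genes of this list, 7 were called lower and 0 higher in Nlrp3-/- M-MDSCs. In Nlrp3-/- G-MDSCs 6 were called lower and 1 higher. In M-MDSCs 4 were higher at an unadjusted p under 0.05 in edgeR and DESeq2 called 0. Their median log2 fold change was −0.14 in M-MDSCs and −0.16 in G-MDSCs, against 0.07 and 0.03 over all tested genes. Ash1l, Epc2, Kdm5b, Setd2 and Tle4 were called lower in both subsets. Ash1l, the methyltransferase that MRG15 activates, fell from 356 ± 21.9 to 154 ± 7.48 CPM in G-MDSCs. Setd2, which writes the methyl mark that the chromodomain reads, fell from 216 ± 27.1 to 121 ± 21.5 CPM in M-MDSCs. Kdm5b, a histone demethylase of the SIN3 complexes, fell in M-MDSCs and G-MDSCs (log2 fold changes −1.05 and −1.01), as did Tle4, a corepressor (−1.13 and −1.39). Sin3b, a scaffold of the deacetylase complex, rose from 172 ± 24.3 to 305 ± 44.3 CPM in G-MDSCs. With the correction for GC content and length 2 genes of the list were called lower and 1 higher in M-MDSCs. In G-MDSCs 2 were lower and 3 higher, so that the lower calls no longer outnumbered the higher ones there. Over all genes the corrected fit called 361 of 9986 lower and 317 higher in M-MDSCs. In G-MDSCs it called 519 of 9273 lower and 504 higher. These are the background for the corrected counts of each list. Without Nlrp3-/- replicate 4 the count of lower genes of the list in M-MDSCs was 4.

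In the list of the SETD1 complex and fork protection, the setting of Bod1l, 5 of 30 genes were called lower and 1 higher in M-MDSCs, and 4 of 29 lower and 1 higher in G-MDSCs. These are 16.7% and 13.8% of the list called lower, against 7.10% and 11.7% of all tested genes, so that in G-MDSCs the share was near the background. The medians of 0.02 and −0.07 lay near those of all genes. Rad50, which tethers broken DNA ends, fell from 59.0 ± 7.0 to 27.3 ± 5.54 CPM in M-MDSCs and from 35.2 ± 9.98 to 11.8 ± 3.03 CPM in G-MDSCs. Nbn, its partner in the same complex, fell from 23.0 ± 3.13 to 7.89 ± 2.88 CPM in M-MDSCs, and Rif1, which limits end resection, from 55.7 ± 7.39 to 23.9 ± 6.27 CPM in G-MDSCs. Among the methyltransferases Kmt2a in G-MDSCs (log2 fold change −1.03) and Kmt2d in M-MDSCs (−0.79) fell. Kmt2b rose in G-MDSCs (0.93), and so did Setd1b, a catalytic subunit of the complex that binds Bod1l, in M-MDSCs (0.63). With the correction 2 genes were called lower and 0 higher in M-MDSCs, and 1 lower and 1 higher in G-MDSCs. The count of lower genes in M-MDSCs was 3 when Nlrp3-/- replicate 4, WT replicate 2 or WT replicate 4 was left out, each in turn.

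The list of the small subunit processome, the particle of Dnttip2, also holds Dnttip1, which is counted in its totals. Of its genes 12 of 56 were called lower and 2 higher in M-MDSCs, and 9 of 54 lower and 0 higher in G-MDSCs. The medians were −0.19 and −0.23. These are 21.4% and 16.7% of the list called lower, against 7.10% and 11.7% of all tested genes. In G-MDSCs 3 genes of the list were higher at an unadjusted p under 0.05 in edgeR and DESeq2 called 0. The 7 called lower in both subsets were Ddx10, Ddx21, Esf1, Krr1, Mphosph10, Nop14 and Utp18. Ddx10, an RNA helicase, fell from 112 ± 13.4 to 43.7 ± 15.7 CPM in M-MDSCs and from 41.6 ± 13.3 to 12.7 ± 3.46 CPM in G-MDSCs. Mphosph10 and Utp18 fell in M-MDSCs (log2 fold changes −1.26 and −1.24), and Nop14 and Ddx52 in G-MDSCs (−1.78 and −0.83). Imp3, which binds Mphosph10, and Noc4l rose in M-MDSCs (0.64 and 0.85). Between subsets, 37 of 56 genes of this list (66.1%, against 30.0% of all tested genes) were called lower and 0 higher (against 28.2%) in G-MDSCs. Their median log2 difference was −0.92, against −0.04 over all genes, whereas Dnttip2 itself was higher there. At an unadjusted p under 0.05 in edgeR 3 genes of the list, Dnttip1 among them, were higher, and DESeq2 called 0. With the correction 8 genes were called lower and 1 higher in Nlrp3-/- M-MDSCs, and 5 lower and 0 higher in Nlrp3-/- G-MDSCs. In M-MDSCs the count of lower genes was 5 without Nlrp3-/- replicate 4. It was 6 when WT replicate 2, 3 or 4 was left out, each in turn.

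The centrosome and midbody list, the setting of Cntrl, had the most negative medians of the 5 lists. They were −0.42 in M-MDSCs and −0.68 in G-MDSCs. In M-MDSCs 11 of 48 genes (22.9%, against 7.10% of all tested genes) were called lower and in G-MDSCs 16 of 49 (32.7%, against 11.7%). By edgeR 0 were called higher in either, while 2 and 1 were higher at an unadjusted p under 0.05 and DESeq2 called 0 and 1. The 10 lower in both subsets were Akap9, Cep290, Cep350, Cep83, Exoc6, Kif23, Nin, Pcm1, Plk4 and Sclt1. Cep83, a protein of the distal appendages, fell from 54.4 ± 3.01 to 20.5 ± 5.47 CPM in M-MDSCs and from 82.7 ± 10.2 to 25.0 ± 3.66 CPM in G-MDSCs. Cep350, a large centrosomal protein, fell in both (log2 fold changes −1.13 and −1.21). Pcm1, the scaffold of centriolar satellites, fell in M-MDSCs (−0.95), and Kif23, a kinesin of the midbody, fell from 305 ± 65.5 to 102 ± 17.3 CPM in G-MDSCs. With the correction 6 of 48 genes were called lower and 0 higher in M-MDSCs, against 361 lower and 317 higher of all 9986. In G-MDSCs 8 of 49 were called lower and 1 higher, against 519 lower and 504 higher of all 9273.

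The list of cytohesins and ARF regulators, the setting of Ipcef1, had 1 lower and 1 higher gene among 39 in M-MDSCs and 6 lower and 0 higher among 34 in G-MDSCs, where 6 were higher at an unadjusted p under 0.05 in edgeR and DESeq2 called 1. The shares called lower were 2.56% in M-MDSCs and 17.6% in G-MDSCs, against 7.10% and 11.7% of all tested genes. The list medians of 0.12 and 0.04 were near those of all genes. Cyth1, a cytohesin, fell from 43.8 ± 12.01 to 16.3 ± 6.74 CPM in G-MDSCs. Arfgef1, an exchange factor for ARF proteins at the Golgi, fell in both subsets (log2 fold changes −0.79 in M-MDSCs and −0.92 in G-MDSCs), and Agap1, which switches ARF proteins off, fell in G-MDSCs (−0.77). Git1, another inactivator of ARF proteins, rose in M-MDSCs (0.90). Between subsets 17 of 39 genes (43.6%, against 28.2% of all tested genes) were called higher in G-MDSCs. Another 7 (17.9%, against 30.0%) were called lower, and the list median was 0.47. With the correction 0 genes were called lower and 2 higher in M-MDSCs, and 1 lower and 2 higher in G-MDSCs, where library size alone gave 4 lower and 4 higher. In M-MDSCs 5 were lower without Nlrp3-/- replicate 1 and 0 without Nlrp3-/- replicate 3 or 4 or WT replicate 2, 3 or 4, and in G-MDSCs 3 without WT replicate 2. Over the fits that left out 1 library the genes called higher numbered 0 to 3 in each of the 5 lists in M-MDSCs and 0 to 2 in G-MDSCs.

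**Figure D5:**
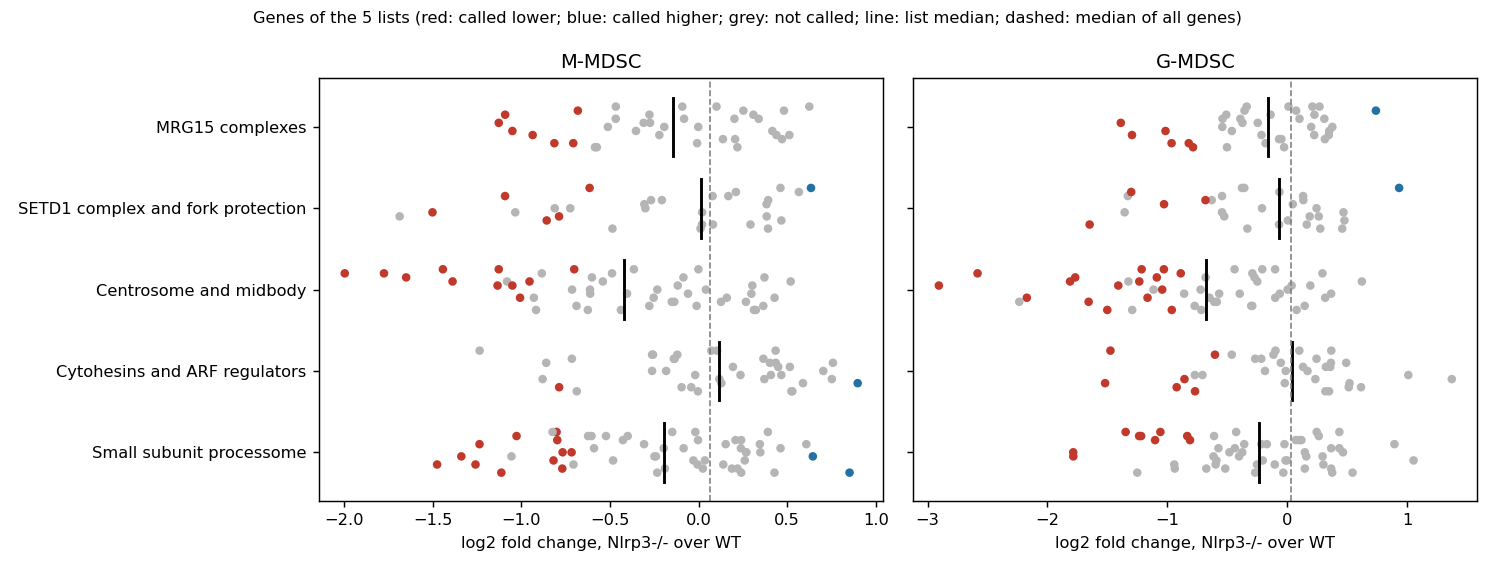
Log2 fold change of Nlrp3-/- over WT (horizontal axes, each panel with its own range) of the tested genes of the 5 lists in M-MDSCs (left) and G-MDSCs (right), red where called lower, blue where called higher and grey otherwise, with the list median as a black line and the median of all tested genes as a dashed line. The centrosome and midbody list lies farthest left, with medians of −0.42 and −0.68, and the cytohesin list lies near the median of all genes.

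The genes whose pattern over the 16 libraries was most like that of each member were found by the root mean square difference of centred log2 CPM, over 10691 genes, the 5 members being left out of the search. For Bod1l these were Prpf4b, a splicing kinase (0.20), Ccdc88c (0.24) and Smc3, a cohesin subunit (0.27). For Cntrl they were Atrx, a chromatin remodeller (0.22), Suz12, a Polycomb subunit (0.24), and Cep83 (0.24), which is also in its list. For Dnttip2 they were Chd1, a chromatin remodeller (0.28), Fcho2, which acts in endocytosis (0.29), and Cebpz (0.30), and for Morf4l1 they included Slmap (0.31) and Fcho2 (0.31). Ipcef1 had less close neighbours, 4930594C11Rik (0.37), 2810474O19Rik (0.40) and Lyst, which regulates granules and lysosomes (0.43), all higher in G-MDSCs by 2.76 to 2.83 on the log2 scale. Among the members themselves Dnttip2 and Morf4l1 were the closest pair (0.30), nearer than Slmap is to Morf4l1, then Bod1l and Cntrl (0.39), and Bod1l and Ipcef1 the farthest (1.84). All these distances span the 16 libraries and so include the genotype differences that chose the members. Of the neighbours named here, Ccdc88c had a GC content above the median of the tested genes, at percentile 86.7, and the others had one below it.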

How the data were processed

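mRNA of 16 sorted samples was sequenced by QuantSeq. Per the labels and the methods of the study, the authors mapped reads to mm10 with hisat2 2.1.0 and counted them by strand with htseq-count, and they deposited raw counts of 24421 symbols per library. Amplification took 15 or 17 cycles, with no library named. They entered edgeR 4.0.16 in R 4.3.3 (filterByExpr, TMM, quasi-likelihood test with Benjamini-Hochberg adjustment). Genotypes were compared within each subset, 4 against 4, and subsets over all 16 libraries. Standard errors are the log2 fold change divided by the square root of F. CPM use TMM over 16 libraries, and log2 CPM a prior count of 2. Limits from counts cover counting error only.

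The members and lists were chosen with earlier results of these data known. Named genes were the 5 members, per list and subset the 3 DEGs of smallest p in each direction, paralogs, overlapping genes and the 3 nearest genes. One nearest gene of Morf4l1 is not reported here. Genes called lower in both subsets were named after their values were seen. Transcripts came from GENCODE vM21 (24021 symbols matched, 645 by an older symbol).

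M-MDSC and G-MDSC libraries of a mouse share it by label, and their deviations from the group means correlated at 0.01 to 0.40. The blocked fit was an alternative, beside DESeq2 1.42.0, other scalings, filters, a correction by splines with 4 degrees of freedom and leaving out each library. The methods were tested on simulated data. No library duplicated another of its group (24 pairs compared). Figures used matplotlib 3.10.9.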

Additional observations from a re-analysis of the deposited data

Results flagged for a closer look

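Morf4l1 in replicate 3 of WT M-MDSCs, at 189.6 CPM, lay far below the other 3 libraries of its group, which were within 219 to 219.6 CPM. The gap took 97.1% of the range of the group, which is wide only because the other 3 nearly coincide. This was the 1 group flagged among 20 tested (5 genes in 4 groups), and chance flags about 5% of such groups.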

How the results depend on the processing

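The 5 genes were chosen by their genotype differences, so a kept direction lends these no independent support. All 10 genotype values of the 5 genes kept their direction under every alternative run, and among the alternatives that kept every library they came nearest to 0 with the correction for GC content and length, alone or with the replicate block. With it alone Bod1l, Cntrl and Dnttip2 stood at −0.87, −1.03 and −1.46 in M-MDSCs and Bod1l, Cntrl and Ipcef1 at −1.53, −1.63 and −1.34 in G-MDSCs. Library size alone gave Dnttip2 −1.56 in M-MDSCs. The WT and Nlrp3-/- samples share replicate numbers but no mice, and same-numbered deviations correlated at −0.48 to 0.03, with 0 of 8 samples in either subset closest to its own number. With the replicate block 425 genes passed in M-MDSCs and 985 in G-MDSCs. With the replicate block and the correction together 29 and 395 passed, Bod1l and Dnttip2 were at −0.88 and −1.45 in M-MDSCs, and Bod1l, Cntrl and Ipcef1 at −1.54, −1.64 and −1.34 in G-MDSCs. The block with the mouse changed no call of the 5 genes between the subsets. In M-MDSCs 678 genes passed with the correction alone, against 1060 without it. Leaving out 1 library gave 450 to 1783 DEGs in M-MDSCs. The count was 1783 without Nlrp3-/- replicate 1, 702 and 450 without Nlrp3-/- replicates 3 and 4, and 514, 669 and 473 without WT replicates 2, 3 and 4. Between the subsets 3956 genes passed when at least 10 counts were asked in every sample, since 6959 were then tested. With library size alone 81.4% of the DEGs were lower in G-MDSCs and with upper-quartile scaling 61.7%, against 51.5%. Library size alone brought the lower share to 45.4% in M-MDSCs and 51.9% in G-MDSCs between genotypes, and the model of all 16 samples brought that of G-MDSCs to 56.6%.

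For the difference between subsets, Ipcef1 and its call held under every alternative, at 2.42 to 3.30, and at 3.15 to 3.38 with 1 mouse left out. Bod1l passed with library size alone (−1.24), upper-quartile scaling (−0.67) and in Nlrp3-/- mice alone (−0.92). Cntrl turned to −0.54 with library size alone and to −0.16 in Nlrp3-/- mice alone. Dnttip2 turned to −0.087 with library size alone and missed the fold limit with upper-quartile scaling (0.49), at least 10 counts in every sample (0.58) and WT mice alone (0.55). Morf4l1 turned to −0.16 with library size alone and missed it with DESeq2's size factors (0.58), upper-quartile scaling (0.40), DESeq2's test (0.58), without the filter (0.58), with at least 10 counts in every sample (0.50), WT mice alone (0.33) and the pseudogene counts added (0.43), an alternative chosen after seeing the data. Leaving out 1 mouse gave 0.53 to 0.67 for Morf4l1. Apart from the scalings and filters named, the cause was not tested. Of the list counts under the alternatives, 283 stayed within 1.5 times their value and 97 did not. The 3 nearest genes of each member were the same with a prior count of 0.5.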
